A study of Homo sapiens with 20 samples.

Results

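Oxaliplatin (OXPT), a platinum drug that forms crosslinks on DNA, was compared with no drug (UNT) in HCT-116 cells with wild-type FBXW7 that had received control esiRNAs. These 4 libraries, 2 OXPT and 2 UNT, were taken from the 16 libraries with peak lists in the series, by their labels. H3K27ac was profiled by ChIP-seq, immunoprecipitation of chromatin followed by sequencing, and each library came with its own list of peaks and its own list of super-enhancers (SEs). The 4 peak lists held 88168 of the 271549 peaks of the series on chromosomes 1 to 22 and X, and merged into 38897 regions wherever peaks overlapped by at least 1 bp. A region was called lost when both UNT libraries and neither OXPT library listed a peak in it, and gained in the opposite case. There were 3581 lost and 303 gained regions, and among 1414 merged SE regions 288 were lost and 5 were gained.

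All 4 libraries came from a single cell line, HCT-116, which was derived from a human colorectal carcinoma. The cells (WT) carried unaltered FBXW7, the substrate-recognition part of a ubiquitin ligase that marks proteins for degradation. All of them, controls included, were transfected for 48 h with the control esiRNA pool (esiCT), a mixture of short interfering RNAs made by enzymatic digestion. The OXPT cells received 50 µM oxaliplatin for the last 24 h and the UNT cells received none. Each condition had replicates A and B. The labels state that 3 independent experiments were pooled and do not say how these pools relate to the letters, so the spread between replicates may not be that between single cultures. The study as a whole set this treatment beside FBXW7 deletion (KO) and HDAC4 silencing (esiHDAC4) and asked how acetylated chromatin and SEs relate to the response to the drug.

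Acetylation of histone H3 at lysine 27 (H3K27ac) marks active promoters and enhancers, and its peaks show where regulatory DNA is in use. SEs are long clusters of such enhancers, often beside genes that define the cell type or drive its growth. DNA damage by platinum drugs stabilizes p53, a transcription factor that binds an element made of a pair of adjacent half-sites, each with a C and a G at fixed places, and switches on genes of cell cycle arrest, DNA repair and apoptosis.

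A few sequences of gained and lost regions are printed to show the p53 element of the former and the start sites among the latter. A p53 element was searched as 20 bases, 2 consecutive half-sites with both core C and G bases intact and at most 2 mismatches elsewhere. The element is its own reverse complement, so that 1 search covers both strands. Shown first are 200 bp around the element of 4 intergenic regions, chosen from the gained regions with high summit folds in both OXPT libraries and an element of at most 1 mismatch outside exons, read from hg38 on the + strand with the element in capitals. They lie nearest to EDDM3A (chr14:20752042-20752241), VIM (chr10:17247388-17247587), PLA2G4A (chr1:187638832-187639031) and MRGPRE (chr11:3250692-3250891).
EDDM3A: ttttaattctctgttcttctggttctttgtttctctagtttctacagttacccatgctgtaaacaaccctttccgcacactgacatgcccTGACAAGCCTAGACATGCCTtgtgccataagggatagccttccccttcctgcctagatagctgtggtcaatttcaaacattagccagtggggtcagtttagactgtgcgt
VIM: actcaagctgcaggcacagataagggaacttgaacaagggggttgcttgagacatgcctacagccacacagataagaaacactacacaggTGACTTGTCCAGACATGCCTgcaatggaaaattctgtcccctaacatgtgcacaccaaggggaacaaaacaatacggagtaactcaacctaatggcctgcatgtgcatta
PLA2G4A: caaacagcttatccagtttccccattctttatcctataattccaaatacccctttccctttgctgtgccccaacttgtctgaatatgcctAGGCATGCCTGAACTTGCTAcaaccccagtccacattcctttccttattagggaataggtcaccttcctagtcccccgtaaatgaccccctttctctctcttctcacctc
MRGPRE: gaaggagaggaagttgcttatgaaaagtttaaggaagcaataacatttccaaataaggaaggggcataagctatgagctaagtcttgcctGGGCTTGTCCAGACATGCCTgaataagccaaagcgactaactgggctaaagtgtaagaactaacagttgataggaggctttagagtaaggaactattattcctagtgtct
The MRGPRE element had 0 mismatches and the other 3 had 1 each. The elements lay between 233 bp (PLA2G4A) and 433 bp (MRGPRE) from the summit.

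For contrast, 200 bp around the summit are printed for 3 lost start-site regions, that of BICD2, which ranked first among lost regions by the lower of its 2 UNT folds, and those of the immediate early genes EGR1 and FOS, which kept no start-site peak in either OXPT library. They are BICD2 (chr9:92765223-92765422), EGR1 (chr5:138464846-138465045) and FOS (chr14:75278554-75278753), with the GC box, GGGCGG on either strand, in capitals where one occurred.
BICD2: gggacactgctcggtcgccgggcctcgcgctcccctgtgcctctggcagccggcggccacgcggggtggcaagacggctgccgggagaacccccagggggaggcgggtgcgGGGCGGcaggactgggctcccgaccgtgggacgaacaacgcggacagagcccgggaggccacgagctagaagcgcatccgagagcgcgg
EGR1: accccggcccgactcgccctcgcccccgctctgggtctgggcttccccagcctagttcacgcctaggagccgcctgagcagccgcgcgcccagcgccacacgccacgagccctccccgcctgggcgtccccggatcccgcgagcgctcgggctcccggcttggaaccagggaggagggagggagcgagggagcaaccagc
FOS: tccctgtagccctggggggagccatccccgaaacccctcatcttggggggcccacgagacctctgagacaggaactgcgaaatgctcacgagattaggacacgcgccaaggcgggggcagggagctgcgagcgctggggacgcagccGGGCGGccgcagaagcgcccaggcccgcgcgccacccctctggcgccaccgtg
The BICD2 window was 75.5% G and C with 25 CpG dinucleotides, the EGR1 window 75.5% with 22 and the FOS window 71% with 19. The gained windows printed above held 1 or 2 CpG dinucleotides and between 41% and 47% G and C. This contrast is one of start sites with distal DNA, since among distal regions alone the median window had 45.5% G and C in lost and 44% in gained regions, with 2 CpG dinucleotides in both.

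The lists differed in length and depth, and one library stood apart. After OXPT the list of replicate A held 24346 peaks against 27927 in UNT A, and that of replicate B held 10562 against 25333 in UNT B. OXPT minus UNT averaged −0.73 ± 0.75 on the log2 scale (SD of 2 pairs), within the spread between pairs, and the two-sided exact permutation test gave p = 0.5, the smallest value 2 pairs allow. Covered length was 28.8 Mb and 23.1 Mb in UNT A and B against 18.4 Mb and 6.03 Mb in OXPT A and B, and median peak width was 690 bp and 594 bp against 553 bp and 423 bp. The share of peaks within 1 kb of a protein-coding start site was 47.7% and 48.2% in UNT and 45% and 32.9% in OXPT. The commonest local background recovered from the peak values, an index of depth, was 3.04 reads in UNT A, 5 in UNT B, 3.29 in OXPT A and 2.61 in OXPT B, so that the lowest summit fold that could be called at this background was 3.05 in OXPT B and between 2.59 and 2.80 in the other 3 lists. Where the background was higher locally, lower folds were called. OXPT B was the shallowest and shortest list. Its part in the missing calls was not tested beyond the values given without it and those given at its depth.

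**Figure D1:**
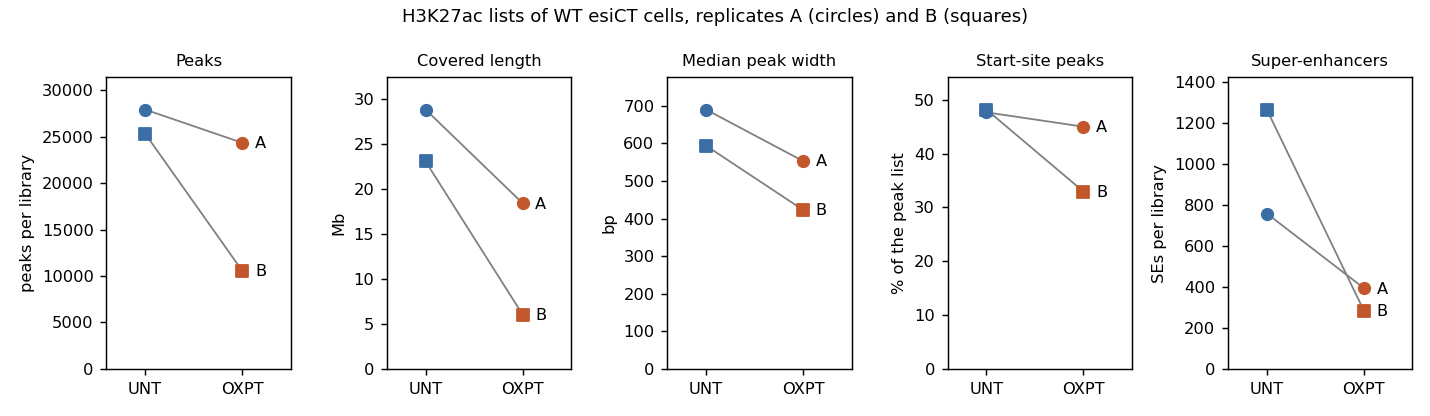
Number of peaks, covered length (Mb), median peak width (bp), share of peaks within 1 kb of a start site (%) and number of SEs in each WT esiCT library, UNT in blue and OXPT in orange, with lines joining replicates of the same letter. All 5 values are lower in OXPT than in UNT for both letters, and the drop is larger in replicate B for each of them.

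The epithelial identity of the cells was visible in all lists. EPCAM, KRT8, KRT18, KRT19 and CLDN7, 5 of 10 colon epithelial markers, had a start-site peak in all 4 libraries, VIL1 had none, and CDH1 had one in UNT only. The list was called at 9, 9, 8 and 5 of 10 genes in UNT A, UNT B, OXPT A and OXPT B, against 56.1%, 47.5%, 46.0% and 17.1% of all protein-coding genes. Of 12 markers of blood, stromal, endothelial, liver and muscle cells, COL1A1 had a start-site peak in all 4 libraries and the other 11 had none in any.

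Acetylated regions that disappeared from both OXPT lists were promoters about as often as enhancers, whereas those that appeared were almost all distal. The 3581 lost regions were 9.21% of all merged regions and the 303 gained regions 0.779%. A start site lay within 1 kb of 1689 lost regions, or 47.2% (95% Wilson interval 45.5% to 48.8%), and of 24 gained regions, or 7.92% (5.38% to 11.5%), against 39.1% of all regions. Of the gained regions 141 lay in introns and 132 between genes, while the corresponding numbers for the lost regions were 859 and 982. These intervals cover counting error only, and since presence or absence of a peak chose the regions, the counts are a description. With every list trimmed to the shortest, the start-site shares were 67.6% of lost and 29.1% of gained regions. Leaving out 1 library at a time gave 34.7% to 61.1% of lost and 8.43% to 21.0% of gained regions. Regions called in only 1 library also had start-site shares below that of all regions. The shares were 7.86% for OXPT B alone, 14.5% for OXPT A alone, 21.3% for UNT B alone and 29.99% for UNT A alone. A low share was therefore not particular to the gained regions, and its cause was not tested.

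Another 4944 regions, 12.7% of all, were called in all 4 libraries, and 54.8% of these lay at a start site. The commonest pattern among regions missing from 1 library was absence from OXPT B alone, with 6715 regions of which 68.9% lay at start sites. A further 2387 regions were called in both A and neither B library, more than the gained regions. Leaving out OXPT B left 4351 lost but 5536 gained regions, since 1 OXPT list was then enough. Without OXPT A the counts were 10385 lost and 1672 gained, without UNT A 9799 and 505, and without UNT B 11757 and 497.

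**Figure D2:**
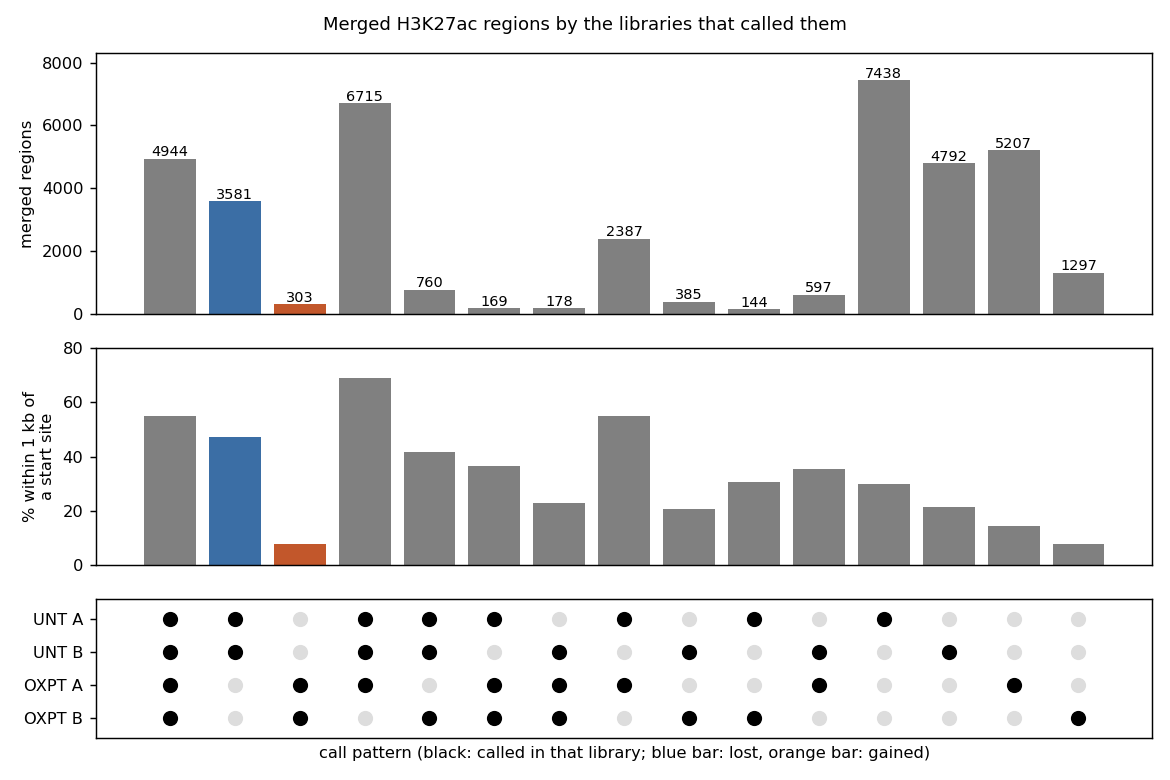
Number of merged regions (top) and their share within 1 kb of a start site in % (middle) for each of the 15 call patterns, with black dots marking the libraries that called them. Lost regions (blue, 3581) had a start-site share of 47.2%, gained regions (orange, 303) one of 7.92%.

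Summit fold, the ratio of the read pileup at a peak's summit to its local background, was moderate in both sets. Lost regions had a median fold of 4.03 in UNT A and 3.82 in UNT B, gained regions one of 3.81 in OXPT A and 3.94 in OXPT B, and regions called in all 4 libraries one of 5.77, 5.19, 4.61 and 4.26 in UNT A, UNT B, OXPT A and OXPT B. In each library the median of the switched regions was thus below that of the regions all lists shared. Both UNT folds exceeded 3.05, the lowest fold callable at the usual background of OXPT B, in 2693 of 3581 lost regions, and both OXPT folds exceeded 2.72, the higher of the callable limits of the UNT lists, in 287 of 303 gained regions. At a −log10 q of at least 10 in both libraries of the calling side, 32 lost regions and 1 gained region remained. When only peaks that would still be called at the depth of OXPT B were kept, an alternative chosen after seeing the data, 2451 regions were lost and 340 gained.

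Of the 12 strongest lost regions 9 lay at start sites, several of them of genes that most cells use. BICD2, an adaptor that links dynein to its cargo, had a start-site region (chr9:92765105-92765779) with a summit fold of 10.1 in UNT A and 7.86 in UNT B and no peak in either OXPT library. IMPDH2, which makes the guanine nucleotide precursor xanthosine monophosphate, had folds of 6.32 and 6.43 (chr3:49028547-49029361). COX5B, a subunit of cytochrome c oxidase, had 6.18 and 7.03 (chr2:97646088-97646876). All of these folds were above the lowest fold callable at the usual background of OXPT B.

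Of the other regions in this group, FKBP3, a nuclear prolyl isomerase, had folds of 6.38 and 6.20 (chr14:45133651-45134386). CDKN2AIP, whose product binds the ARF tumor suppressor and acts on p53, had 6.45 and 6.20 (chr4:183443532-183444430). SPRED3, of the SPRED family of RAS pathway inhibitors, shared a region with GGN and had 6.98 and 6.30 (chr19:38388418-38389649). C8orf58, IFT22, a subunit of the intraflagellar transport complex, and SPRYD3 completed the 9 start-site regions among the 12 strongest, with folds from 6.04 to 6.86. The remaining 3 were an intron of CCDC200 and intergenic regions nearest to BCL6 and GPR20. The BCL6 region (chr3:187889443-187891114), 145 kb from the start site of this transcriptional repressor of germinal center B cells, had folds of 7.22 and 6.91.

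The 12 strongest gained regions held no start site. The intergenic region nearest to CHAMP1, a kinetochore-microtubule attachment protein, had folds of 5.66 in OXPT A and 5.59 in OXPT B and no peak in UNT (chr13:114343053-114345393). An intron of SAE1, a subunit of the SUMO-activating enzyme, had 5.64 and 5.39 (chr19:47151899-47153642).

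The other regions of this group had lower folds of 4.71 to 5.12 in the weaker library. The region nearest to MZF1, a zinc finger transcription factor, had 5.08 in OXPT A and 8.08 in OXPT B (chr19:58597079-58598072). The regions of FZD5, a WNT receptor, ZNF467, EDDM3A and TNFAIP8L1 were intergenic and those of SDK2 and TBC1D22A intronic.

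A p53 element was far more frequent in gained than in lost regions. Within 500 bp of the summit, 97 of 303 gained regions held one, or 32.0% (95% Wilson interval 27% to 37.5%), against 15 of 3581 lost regions, or 0.419%, 106 of 4944 regions called in all 4 libraries, or 2.14%, and 937 of all 38897 regions, or 2.41%. The sequence took no part in choosing the regions. This 1000 bp window was chosen after a 200 bp window had been examined, in which 14 gained regions (4.62%) and 2 lost regions (0.0559%) held an element, against 0.440% of all regions. With at most 1 mismatch, 60 gained regions (19.8%) and 0 lost regions held one, against 0.882% of all regions.

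Regions called in only 1 library showed the same order. An element was present in 7.85% of regions called in OXPT A alone and 7.86% of those called in OXPT B alone, but in 0.538% and 0.668% of those called in UNT A or UNT B alone. The direction of the difference between conditions was therefore present in both replicate letters taken singly. Among distal regions only, the share was 34.1% of gained and 0.370% of lost regions, against 3.47% of all distal regions.

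Of the 97 gained regions with an element, 16 held one without a mismatch, 44 had 1 mismatch and 37 had 2. The median distance from summit to element was 247 bp (quartiles 145 bp and 340 bp), and 72 of the 97 elements lay inside the merged region itself. By position, 46 of these regions were intronic, 47 intergenic, 2 exonic and 2 at start sites. Their median summit fold was 3.9 in OXPT A and 4.13 in OXPT B, close to that of all gained regions. The share with an element did depend on the lists compared, with 22.2% without UNT A, 22.3% without UNT B, 12.7% without OXPT A, 9.07% without OXPT B and 16.9% when every list was trimmed to the length of the shortest, while the share among lost regions was between 0.414% and 0.684% in these settings.

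Among single regions with an element, that nearest to BCL2A1, an anti-apoptotic BCL2 relative whose start site lay 31.8 kb away, had folds of 5.41 in OXPT A and 4.35 in OXPT B, none in UNT, and an element without a mismatch (chr15:80002321-80004343). An intron of EGLN3, a prolyl hydroxylase that acts on hypoxia-inducible factors, had 5.15 and 4.06 at 74.8 kb from the start site (chr14:34297569-34298176). These 2 were picked for the roles of their genes after their values were seen.

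Gained regions also held peaks after OXPT in libraries that had no part in choosing them. In WT cells with HDAC4 silenced, 53.8% and 55.1% of the gained regions were called in OXPT A and B against 7.92% and 21.8% in UNT A and B. In KO esiCT cells the values were 40.6% and 11.2% against 2.97% and 1.98%, and in KO esiHDAC4 cells 52.5% and 18.5% against 10.6% and 0.660%. OXPT was higher than UNT in 6 of 6 pairs of the same letter. Over all 38897 regions OXPT was lower in 3 of these pairs, with 35.3% and 31.8% in WT esiHDAC4 OXPT against 38.3% and 48.3% in UNT, and 31.0% in KO esiHDAC4 OXPT A against 36.2% in UNT A. In the other 3 pairs OXPT was higher over all regions too, with 40.8% against 22.3% in KO esiCT A, 14.1% against 9.78% in KO esiCT B and 9.96% against 2.42% in KO esiHDAC4 B. The B pairs of KO cells had short lists, with 1752 peaks in KO esiHDAC4 UNT B.

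Gained regions with an element were called more often in the other OXPT libraries than those without. In WT esiHDAC4 OXPT, 68.0% and 75.3% of the 97 regions with an element were called in A and B, against 47.1% and 45.6% of the 206 without. In the UNT libraries of the same cells the order was opposite, with 3.09% and 11.3% against 10.2% and 26.7%. In KO esiCT OXPT the shares were 51.5% and 19.6% with an element against 35.4% and 7.28% without, and in KO esiHDAC4 OXPT 72.2% and 23.7% against 43.2% and 16%. All 6 OXPT libraries thus had the higher share among regions with an element.

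**Figure D3:**
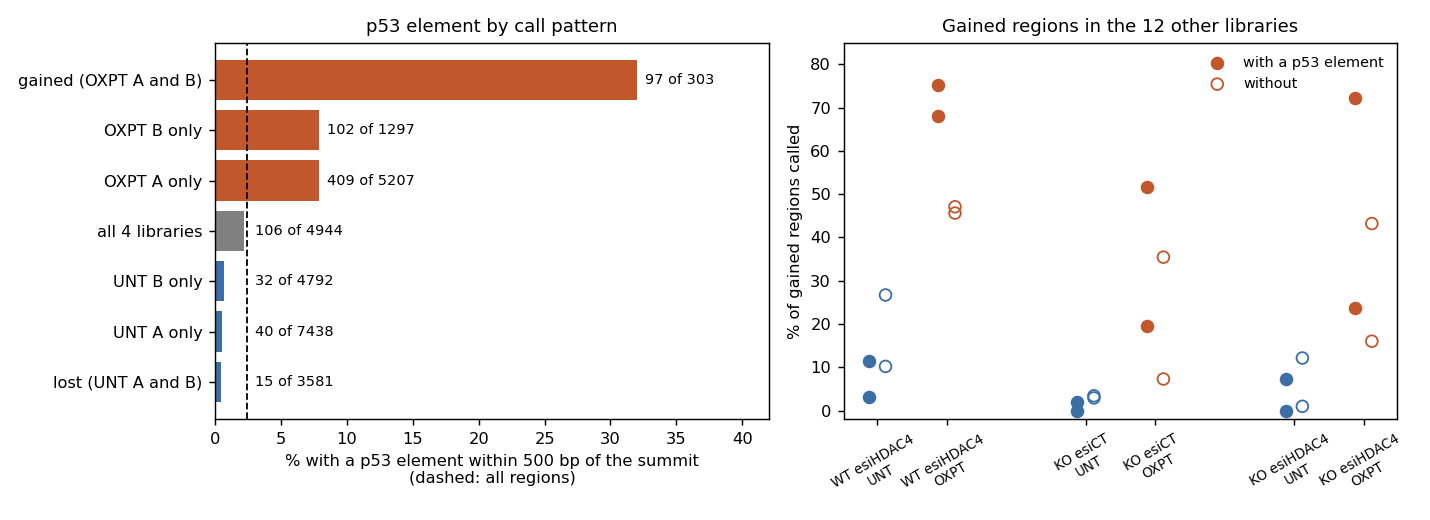
Left, share of regions (%) with a p53 element within 500 bp of the summit by call pattern, UNT patterns in blue, OXPT patterns in orange and regions called in all 4 libraries in grey, with the share of all regions as a dashed line. Right, share of the 303 gained regions (%) called in each of the 12 libraries that did not choose them, 2 replicates per group, for the 97 regions with an element (filled) and the 206 without (open). The gained bar stands at 32.0% and the lost bar at 0.419%, and in each pair the OXPT points lie above the UNT points.

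In the other libraries the calling of lost regions is set beside that of all regions. In WT esiHDAC4 libraries 42.6% and 66.1% of the lost regions were called in UNT A and B against 27.9% and 30.9% in OXPT, when all regions stood at 38.3% and 48.3% against 35.3% and 31.8%. In KO esiCT libraries OXPT had the higher shares, with 18.5% and 7.04% in UNT against 44.5% and 11.1% in OXPT, close to all regions at 22.3% and 9.78% against 40.8% and 14.1%. In KO esiHDAC4 libraries replicate A had 39.5% in UNT and 24.5% in OXPT and replicate B 0.586% and 4.64%, against 36.2% and 31.0% and 2.42% and 9.96% of all regions.

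Other short motifs were searched on both strands in the 200 bp around the summit. The AP-1 motif, TGANTCA, bound by FOS and JUN proteins, occurred in 4.72% of lost, 3.96% of gained and 4.54% of all regions. The GC box occurred in 18.7% of lost, 5.61% of gained and 17.6% of all regions, and among distal regions alone in 7.88%, 5.02% and 7.62%. Among start-site regions it occurred in 30.9% of 1689 lost, 3 of 24 gained and 33.1% of all. The CCAAT box, CCAAT, bound by NFY, was present in 19.6% of lost, 22.4% of gained and 18.5% of all regions. The TEAD motif, GGAATG, occurred in 9.75%, 8.91% and 9.48%, and the forkhead motif, TGTTTAC, in 2.4%, 2.64% and 2.34%. The ETS motif, CCGGAAG, had 2.21%, 0.990% and 1.91%, the TCF motif, ATCAAAG, 2.4%, 3.30% and 2.13%, and the CDX motif, TTTATGG, 2.23%, 3.96% and 2.18%. The CRE, TGACGTCA, and the HNF4A motif, CAAAGTCCA, occurred in at most 0.330% of any of these sets. None of these motifs contains another, though neighboring matches can share bases, and a match is a description of the letters only.

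Start-site peaks at p53 target genes are given beside those of all genes. Of 35 p53 targets, 31, 27, 32 and 23 had a peak within 1 kb of a start site in UNT A, UNT B, OXPT A and OXPT B, or 88.6%, 77.1%, 91.4% and 65.7%, against 56.1%, 47.5%, 46.0% and 17.1% of all 19271 protein-coding genes. A start-site peak in all 4 libraries was present at 20 targets (57.1%), against 15.2% of all genes. Among these 20 the median log2 difference of the highest start-site fold, OXPT minus UNT and not centered, was −0.0055, against −0.34 over all genes called in all 4 libraries. A lost region lay at the start site of 1 of 35 (ZMAT3), against 9.48% of all genes, and a gained region at 1 of 35 (TNFRSF10C), against 0.14%. Of all 114 regions assigned to the p53 targets, 6 were lost (5.26%, against 9.21% of all regions). Only 1 was gained (0.877%), near the 0.779% of all regions, and 5 targets had a lost region assigned. The list was chosen with results of these data known.

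TNFRSF10C, a decoy receptor for the death ligand TRAIL, had start-site folds of 3.67 in OXPT A and 4.17 in OXPT B and no peak in UNT (chr8:23103460-23103978). ZMAT3, a p53-induced RNA-binding protein, had folds of 4.2 and 4.65 in UNT in the lost region (chr3:179071495-179072436), yet kept another start-site peak in OXPT A and B with folds of 4.54 and 4.56. TIGAR, EDA2R and SPATA18 had no start-site peak in any library.

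Regions of p53 targets called in all 4 libraries are given next, of which 0 passed the test over all shared regions. CDKN1A, which encodes the cell cycle inhibitor p21, had a start-site region (chr6:36675592-36678432) with folds of 4.02 in UNT A, 2.91 in UNT B, 5.47 in OXPT A and 4.45 in OXPT B. Both OXPT values were above both UNT values in this region, with a centered log2 difference of 0.83 ± 0.26 (SE) and a limma adjusted p of 0.147 (Benjamini-Hochberg). The highest fold at any CDKN1A start site was 6.16 and 4.68 in UNT against 6.22 and 4.45 in OXPT, in which the groups overlapped. A region of GDF15, a stress-induced cytokine, had 4.03 and 3.05 against 5.83 and 4.10, with a difference of 0.79 ± 0.26 and a limma adjusted p of 0.181 (chr19:18384266-18385957). The highest fold at a GDF15 start site was lower in OXPT, with 7.71 and 6.43 in UNT against 5.83 and 5.86. POLH, the polymerase that bypasses platinum and ultraviolet lesions, had 4.02 and 5.19 against 7.76 and 4.82, with 0.73 ± 0.23 and a limma adjusted p of 0.168, and its groups overlapped.

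The remaining targets included both directions. TP53INP1, a proapoptotic p53 cofactor, had 3.87 and 3.74 in UNT against 6.79 and 3.39 in OXPT, with a centered difference of 0.64 and a limma adjusted p of 0.295. BBC3 (PUMA), which triggers apoptosis at mitochondria, had 5.20 and 4.23 against 6.73 and 3.35, with 0.32 and 0.683. MDM2, the ubiquitin ligase that degrades p53, had 6.14 and 5.62 against 4.40 and 4.49, with −0.10 and 0.925. CDKN1A, GDF15, POLH, TP53INP1, BBC3 and MDM2 were singled out from the list after their values were seen.

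Immediate early and AP-1 genes stood among those that lost start-site peaks. A lost region lay at the start site of 4 of 22 genes of the AP-1 and stress transcription factor list (18.2%, against 9.48% of all genes), namely FOS, EGR1, EGR2 and DDIT3. No start-site peak at all was left in either OXPT library at 4 of 22 genes, FOS, EGR1, EGR2 and JUNB, against 5.77% of all genes with that pattern and 0.0623% with the opposite one. Start-site peaks were called at 19, 20, 15 and 7 of the 22 genes in UNT A, UNT B, OXPT A and OXPT B, or 86.4%, 90.9%, 68.2% and 31.8%, where the shares of all genes also fell, from 56.1% to 46.0% in A and from 47.5% to 17.1% in B. Only a gene called in UNT can lose its start-site peak, and this list was called more often in UNT than all genes. Its shares and the 9.48% and 5.77% of all genes therefore rest on unlike bases.

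FOS, a subunit of AP-1, had start-site folds of 5.32 in UNT A and 2.87 in UNT B (chr14:75278541-75279364). EGR1 and EGR2, zinc finger factors induced by growth signals, had 4.64 and 4.32 (chr5:138464349-138466515) and 5.67 and 4.62 (chr10:62816552-62818126). JUNB had 7.59 and 5.10 in UNT. DDIT3, a mediator of the unfolded protein response, had a lost region with 3.70 and 4.65 (chr12:57519562-57520456) but kept other start-site peaks in OXPT A (3.32) and OXPT B (4.64).

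The orphan nuclear receptors NR4A1, NR4A2 and NR4A3 each had 1 lost region near, but not at, their start sites. They were picked from the 15 genes of the list with a lost region assigned, in another way than the genes above. The NR4A2 region (chr2:156344169-156345356), 2.11 kb from a start site, had folds of 4.70 and 3.54 in UNT, while the start site itself kept peaks in all 4 libraries with 5.53, 5.17, 4.96 and 3.46. Those of NR4A1 and NR4A3 lay 1.27 kb and 2.17 kb away with folds of 4.47 and 4.04 and of 3.66 and 4.89. Over the whole list, 24 of 157 regions assigned to its genes were lost (15.3%, against 9.21% of all regions) and 0 were gained (against 0.779%).

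**Figure D4:**
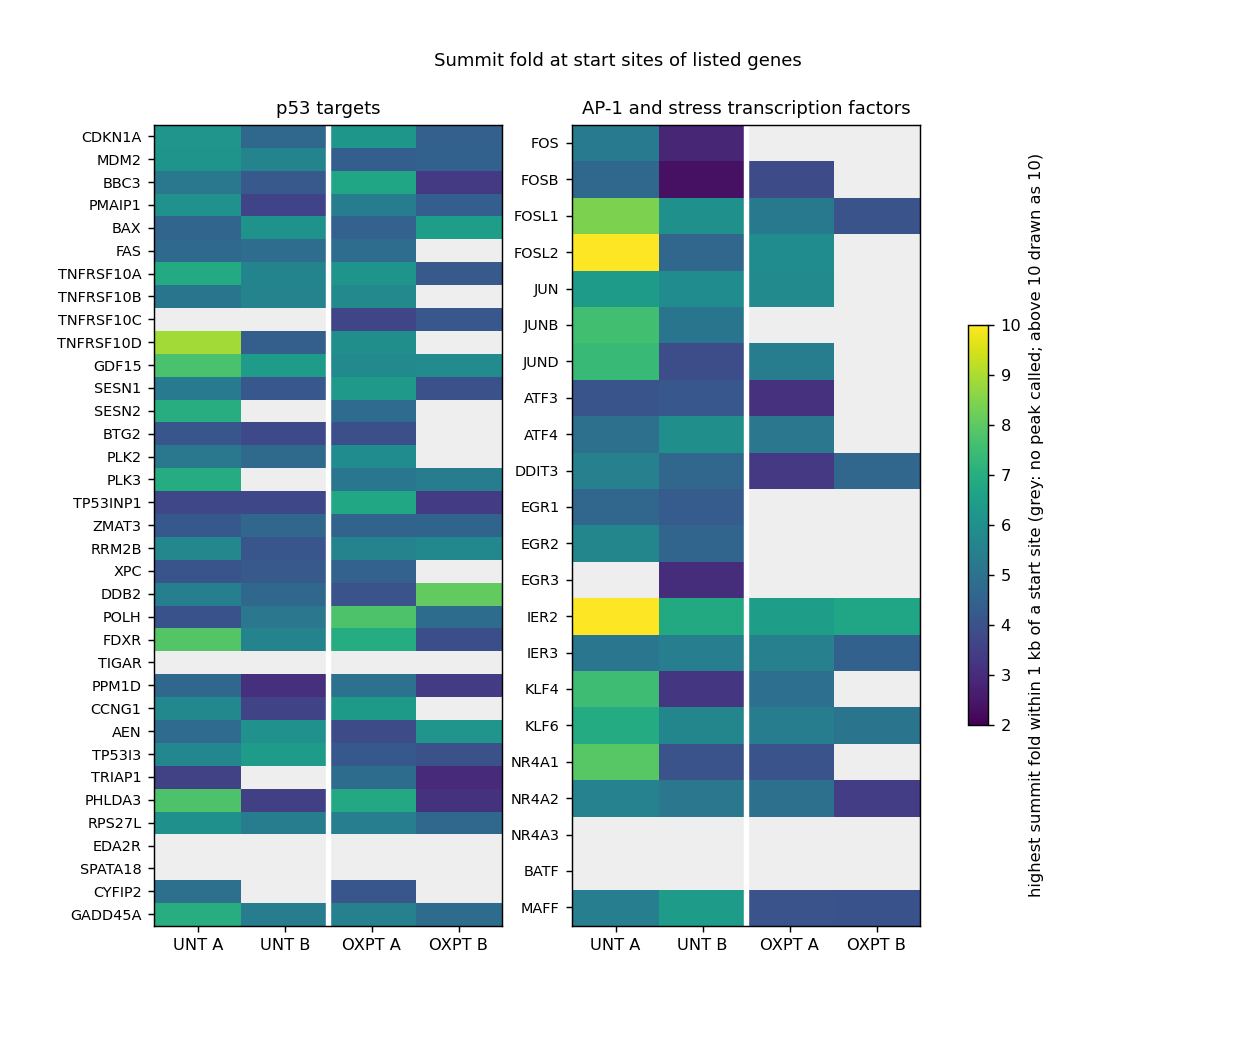
Highest summit fold of a peak within 1 kb of a start site in each library for the 35 p53 targets (left) and the 22 AP-1 and stress transcription factors (right), on a color scale from 2 to 10, grey where no peak was called. In OXPT B 23 of 35 p53 targets and 7 of 22 AP-1 and stress factors were called, and FOS, JUNB, EGR1 and EGR2 are grey in both OXPT columns.

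HDAC4, the class IIa histone deacetylase whose silencing the study examined, lost its start-site peak after OXPT. The region (chr2:239401398-239402528) had folds of 5.04 in UNT A and 4.17 in UNT B and no peak in OXPT A or B, and 3 intronic regions of HDAC4 were lost as well, with folds from 2.26 to 4.77. Of 8 class IIa HDAC and MEF2 genes 3 had a lost start-site region (37.5%, against 9.48% of all genes), the others being MEF2B and MEF2C, both with a further start-site peak in OXPT A. MEF2C, a transcription factor bound by class IIa HDACs, kept one in OXPT B also, with a fold of 4.13. Of the 8 genes, only HDAC4 had no start-site peak in either OXPT library. Start-site peaks were called at 87.5% of the list in UNT A and UNT B, against 56.1% and 47.5% of all genes. The share of 37.5% and that of all genes therefore rest on unlike bases. Over the whole list, 6 of 57 assigned regions were lost (10.5%), near the 9.21% of all regions.

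Genes of apoptosis, inflammation and cell adhesion differed one by one. In the BCL2 family, HRK, a proapoptotic BH3-only protein, had a gained start-site region with folds of 3.38 in OXPT A and 3.70 in OXPT B (chr12:116879965-116880578), and BAD, another one, had a lost region with 4.42 and 3.56 in UNT. These were 1 of 16 genes in each direction (6.25%), against 9.48% of all genes with a lost and 0.14% with a gained start-site region. Of 18 NF-κB targets 3 had a lost start-site region, of which BIRC3, an inhibitor of apoptosis, and CXCL2, a neutrophil chemokine, kept no start-site peak after OXPT. BIRC3 had folds of 6.49 and 5.63 in UNT and CXCL2 had 4.14 and 3.82, and SOD2, the third, kept peaks in OXPT.

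Of 28 epithelial junction and keratin genes 3 had a lost start-site region (10.7%), near the 9.48% of all genes. CDH1, which encodes E-cadherin, had folds of 5.82 and 3.67 in UNT and no start-site peak in OXPT (chr16:68737479-68738487), and PKP2, a desmosomal plakophilin, had 2.77 and 3.39 and likewise none. LAMB3 kept a start-site peak in OXPT A. In the MAPK feedback list of 20 genes, DUSP1, SPRED2 and ETV5 had a lost start-site region (15%). DUSP10 and PHLDA1 kept no start-site peak in OXPT (10%, against 5.77% of all genes). Their UNT folds were 6.59 and 3.19 and 6.93 and 6.20. Start-site peaks were called at 100% and 95% of the MAPK list and 89.3% and 85.7% of the junction list in UNT A and B. Over all genes they were called at 56.1% and 47.5%, so these shares rest on unlike bases.

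Of 16 cholesterol synthesis genes 5 had a lost start-site region (31.3%, against 9.48% of all genes), namely FDFT1, FDPS, DHCR7, SREBF2 and MVD. FDFT1, squalene synthase, had folds of 5.00 and 3.31 in UNT and no start-site peak in OXPT, as was true of IDI1, with 5.12 and 3.99. FDPS, DHCR7 and MVD kept start-site peaks in both OXPT libraries. The master regulator SREBF2 had a lost region with folds of 4.49 and 2.79 and kept another start-site peak in OXPT A. Start-site peaks were called at 93.75% of the list in UNT A and 81.25% in UNT B, against 56.1% and 47.5% of all genes. The list's share with a lost start-site region and that of all genes therefore rest on unlike bases.

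The other lists had lost start-site regions at shares from 0% to 10%, against 9.48% of all genes. The DNA repair and replication list of 30 genes had PCNA, MCM5 and MCM7 with a lost and PCNA and MCM4 with a gained start-site region. MCM5, a subunit of the replicative helicase, had 6.04 and 5.84 in UNT (chr22:35398874-35399898), and PCNA, the sliding clamp, had 4.67 and 3.05 in OXPT in its gained region (chr20:5118350-5119174). The highest start-site fold of PCNA was 7.52 in UNT A, 5.56 in UNT B and 4.67 in OXPT A. In OXPT B no PCNA peak lay within 1 kb of a start site. MCM4 also had start-site peaks in UNT, with highest folds of 4.84 and 6.18 against 5.18 and 4.70 in OXPT. The counts were 2 of 34 cytosolic ribosomal proteins (RPL10 and RPL24), 2 of 23 TGF-β and YAP targets (SMAD7 and AMOTL1), 2 of 20 intestinal epithelial transcription factors (EHF and PPARG), 1 of 18 WNT targets (ZNRF3), 1 of 10 colon epithelial markers (CDH1) and 0 of 12 markers of other cell types. Among the lists, the ribosomal protein genes had the largest share with a start-site peak in all 4 libraries, 76.5%. Over all genes this share was 15.2%. Called were 34 of 34 ribosomal protein genes in UNT A, UNT B and OXPT A and 26 in OXPT B, where 17.1% of all genes were called.

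Lost regions were spread over many genes, and the genes with the most are named here after their counts were seen. PHLDA1, a MAPK-induced regulator of apoptosis, had 16 of its 82 assigned regions lost and 1 gained, RAD51B 15 of 99, PCDH7 14 of 86, HMGA2 13 of 67 and IRS1 12 of 80, against 9.21% of all regions. The lost regions of PHLDA1 lay between 6.24 kb and 259 kb from the start site, with UNT folds from 2.77 to 5.96. In all, 2733 genes were assigned a lost region and 295 a gained one, and 8 genes were assigned 2 or more gained regions, among them TCF7L2, the WNT effector, and NR5A2. Of the 19 regions assigned to TCF7L2, 2 were gained and 2 lost, and of the 13 assigned to NR5A2, 2 were gained and 0 lost. By chromosome, 15.9% of regions on X and 12% on 6 were lost, and 1 of 528 regions on X was gained.

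Within the 4944 regions called in all 4 libraries the height of the summit was tested, since these regions were not chosen by a difference. In limma on log2 summit folds centered per library, with condition and replicate letter as terms, 16 regions (0.324%) had a higher and 3 (0.0607%) a lower fold in OXPT at a Benjamini-Hochberg adjusted p under 0.05. The 4 libraries left this fit 1 residual degree of freedom per region, and most of each variance was borrowed from the other regions. Without the letter as a block limma called 0 regions in either direction, with 226 at an unadjusted p under 0.05. Without centering the split was 10 higher and 488 lower, as the median of all shared regions then lay at −0.30, and centered values are relative to that shift. The calls rest on 4 libraries, and leaving out any 1 of them left at most 2 higher and 1 lower regions.

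All 16 higher regions were distal, and 7 of the 16 held a p53 element, against 2.14% of all shared regions. An intron of C2CD3, a centriole protein, had folds of 3.84 in UNT A, 2.59 in UNT B, 6.63 in OXPT A and 6.10 in OXPT B (chr11:74134323-74136951), a log2 difference of 1.32 ± 0.25 (SE) with a limma adjusted p of 7.36e-04. The region nearest to DAD1, a subunit of the oligosaccharyltransferase, had 3.61 and 2.91 against 7.64 and 4.93 and held an element (chr14:22536309-22537989, difference 1.22 ± 0.25, limma adjusted p = 0.00273). The region nearest to CD70, a ligand of the TNF family, had 3.35 and 2.55 against 3.89 and 7.47 and also held one (chr19:6576340-6579027, 1.19 ± 0.26, limma adjusted p = 0.00575). In all 3 regions both OXPT values exceeded both UNT values.

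An element was also present in the higher regions of TSGA10, SPATA31D1 and MICAL2, an actin-oxidizing enzyme, with differences of 1.14, 1.10 and 1.05. RGS20, ZMAT2, MRTFB, a coactivator of serum response factor, and CAPN2, a calpain protease, had differences of 1.12, 1.08, 1.05 and 1.05 and held none. Over all 106 shared regions with an element the median log2 difference was 0.23 and 77 (72.6%) lay above 0, against a median of 0.0044 and 50.7% for all shared regions. Among distal regions the medians were 0.37 with an element (n = 67) and 0.031 without (n = 2168).

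The 3 lower regions were 2 start sites and 1 intergenic region. FUT11, a fucosyltransferase, had folds of 8.56 and 7.37 in UNT against 3.36 and 3.05 in OXPT (chr10:73771415-73774835, −1.0 ± 0.24, limma adjusted p = 0.0143). The region shared by RNF207 and the ribosomal protein gene RPL22 had 13.2 and 8.05 against 5.36 and 3.61 (chr1:6204222-6207213, −0.92 ± 0.23, limma adjusted p = 0.0206). The region nearest to ZNF628 had 9.13 and 7.29 against 3.64 and 3.05. The groups did not overlap in any of the 3.

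Fewer SEs were listed after OXPT in both pairs. OXPT A had 394 SEs against 758 in UNT A, and OXPT B had 284 against 1265 in UNT B, on average −1.55 ± 0.86 on the log2 scale (SD of 2 pairs), with p = 0.5 in the two-sided exact permutation test, again the smallest possible value. Of 1414 merged SE regions 288 (20.4%) were lost, 5 (0.354%) were gained and 161 were called in all 4 libraries. Another 557 were called in UNT B alone, and without UNT A the lost SE regions numbered 861. The count depended on list length, and with SE lists trimmed to the shortest 26 SE regions were lost and 7 gained. The methods kept SEs that also carried H3K4me1, the mark of enhancers, and do not say whether the deposited SE lists had been filtered in this way.

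Lost SE regions mostly kept acetylated peaks after OXPT but with less of their length covered. A peak remained in both OXPT libraries in 230 of 288 lost SE regions (79.9%, 95% Wilson interval 74.9% to 84.1%), and 1 kept none. The median length covered by peaks was 4.84 kb and 4.29 kb in UNT A and B against 1.97 kb and 0.847 kb in OXPT A and B. In 263 of 288 both OXPT values were below both UNT values. The 161 shared SE regions were also covered less in OXPT, with medians of 18.9 kb and 18.7 kb in UNT against 11.1 kb and 6.23 kb, as were the whole lists.

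Lost SE regions were ranked by the shorter of their 2 UNT spans, and 10 are named. The first was in RAD51B, which acts in homologous recombination (chr14:68521430-68628854), with 16.6 kb and 15.7 kb covered in UNT A and B against 8.40 kb and 4.79 kb in OXPT A and B. A second SE region in RAD51B had 8.68 kb and 8.94 kb against 1.94 kb and 1.10 kb (chr14:68160971-68197930). CAMK2D, a calcium-dependent kinase, had 16.1 kb and 20.4 kb against 7.60 kb and 2.98 kb (chr4:113433367-113477615).

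Of the other regions named, that of F2RL1, a protease-activated receptor, had 10.3 kb and 13.8 kb against 5.07 kb and 1.81 kb (chr5:76784796-76840164). That of HMGA2, a chromatin protein of proliferating cells, had 6.43 kb and 10.8 kb against 1.95 kb and 0.269 kb (chr12:65924128-65962945). JUP, or plakoglobin, had 9.76 kb and 10.4 kb against 7.36 kb and 2.30 kb, and ERCC1, a nuclease subunit that excises platinum adducts, had 6.95 kb and 6.42 kb against 5.44 kb and 1.98 kb. In both, OXPT A was closer to UNT than to OXPT B. PTP4A2, PRKCH and SAMD13 completed the 10, and in all 10 both OXPT values were below both UNT values.

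**Figure D5:**
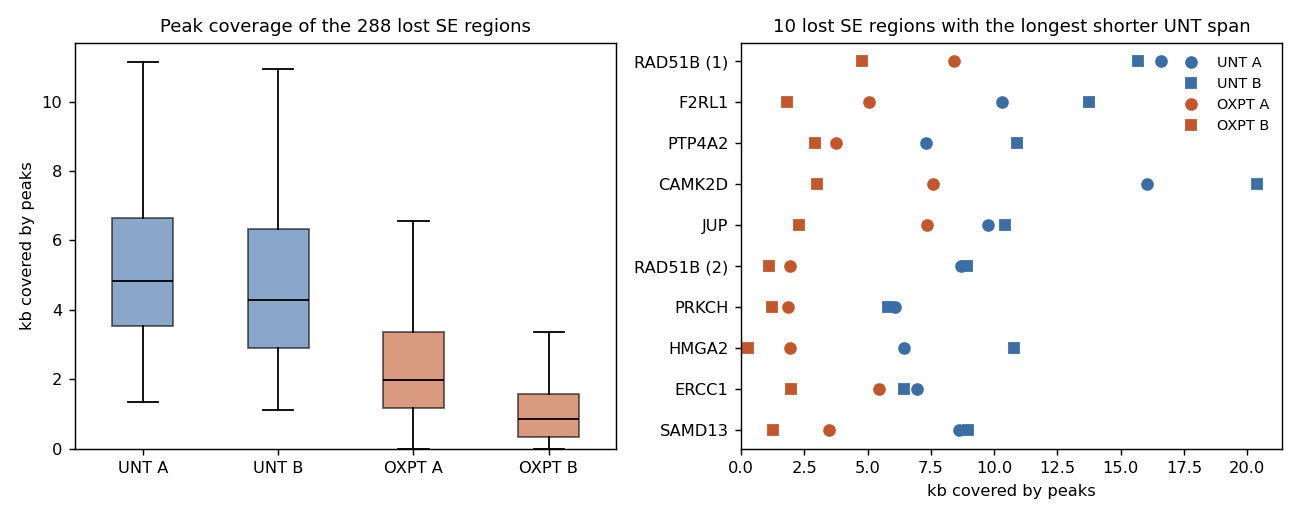
Left, length covered by peaks (kb) in the 288 lost SE regions in each library, with boxes from the lower to the upper quartile, the median as a line and whiskers to 1.5 times the box length. Right, the same value in each library for the 10 lost SE regions with the longest shorter span in UNT. Medians were 4.84 kb and 4.29 kb in UNT and 1.97 kb and 0.847 kb in OXPT.

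A start site lay inside 76 of 288 lost SE regions (26.4%), against 23.9% of all SE regions. Start sites of 80 genes, 0.415% of all protein-coding genes, lay in a lost SE region, among them FOSL2 and JUND of the AP-1 list, TJP3 and JUP of the junction list, ERCC1 and BAD. The SE region of JUND (chr19:18278775-18305902) was covered over 10.5 kb and 7.57 kb in UNT against 6.99 kb and 1.61 kb in OXPT, and that of FOSL2 (chr2:28389881-28410279) over 6.44 kb and 3.33 kb against 4.54 kb and 0.325 kb. No start site of the 35 p53 targets lay in a lost SE region.

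The 5 gained SE regions all held peaks in both UNT libraries. The longest, nearest to BLID (chr11:122132743-122201028), was covered over 64.4 kb and 66.0 kb in UNT A and B against 45.9 kb and 38.6 kb in OXPT A and B, so that it carried more acetylated length in the libraries that did not call it. The region nearest to GPR15 had 30.7 kb and 29.5 kb against 16.9 kb and 14.8 kb (chr3:98535229-98586222). Only the region nearest to CA2, carbonic anhydrase II, and that in PTPN14, a phosphatase of the Hippo pathway, were covered further in both OXPT than in both UNT libraries, with 3.08 kb and 1.71 kb against 0.995 kb and 0.375 kb and with 3.13 kb and 2.61 kb against 2.4 kb and 0.892 kb. The region in BCAR3 had 6.04 kb and 1.72 kb in OXPT against 5.93 kb and 5.36 kb in UNT.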

How the data were processed

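H3K27ac ChIP-seq was used for 2 UNT and 2 OXPT libraries of WT esiCT cells, and inputs were not used. Per the labels and methods, the authors trimmed reads (Trimmomatic 0.39), aligned them to hg38 (Bowtie2 2.4.4), removed duplicates (SAMtools 1.18) and called peaks in each library (MACS2 2.2.7.1), with versions from the submitters' processing notes. The deposited peak lists give for each peak the fold enrichment at the summit, a ratio to the local background. They also give the authors' −log10 p and −log10 q, of which q was under 0.05 for every peak. The deposited SE lists, made with ROSE, give positions only. Read counts were not used here, so that no count model was fitted. The 279844 listed intervals held 0 that ran past the end of an hg38 chromosome.

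Peaks and SEs on chromosomes 1 to 22 and X were merged at 1 bp overlap. Regions were assigned to protein-coding start sites of GENCODE 44 within 1 kb, else to the gene whose body held the summit, else to the nearest start site. Log2 summit folds (highest peak per region), centered on each library's median, were tested with limma 3.58.1 (R 4.3.3) with condition and replicate letter as terms, the design the study used, and Benjamini-Hochberg adjustment over all shared regions at 0.05. Library values were compared by the exact permutation test within letters, whose smallest two-sided p is 0.5. Intervals are 95% Wilson intervals. Summit reads and local background were solved from fold and −log10 p to within 0.01 for peaks with −log10 p below 60. Python 3.11.15, scipy 1.17.1 and pysam 0.24.0 were used, and the procedures were tested on simulated data.

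Log2 summit folds of same-letter libraries correlated more closely across shared regions (r = 0.51 for A, 0.43 for B) than those of the same condition (0.40 for UNT, 0.23 for OXPT), and deviations from the group means correlated at 0.34. With 2 pairs this is a hint from the data, and the labels do not say what a letter shares.

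Named were the 12 lost and 12 gained regions with the highest lower summit fold, the 10 lost SE regions with the longest shorter span in the 2 UNT lists, all gained SE regions, up to 10 regions per direction from limma, and genes of 15 lists with switched start-site regions. The comparison, its members and the lists were chosen with earlier results of these data known. Genes or loci picked in another way are marked so. A few of the regions and genes these rules name are not reported here.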

Additional observations from a re-analysis of the deposited data

Results flagged for a closer look

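Library-level values moved in opposite directions in WT esiCT and KO esiCT cells, which is given here as values only. For each of the following, both WT pairs lay below 0 and both KO pairs above 0, and the difference between the cell types was not tested. Peak number, as the log2 ratio of OXPT to UNT, was −0.20 in A and −1.26 in B of WT against 0.79 and 0.42 in KO, a difference of the means of 1.34. The start-site share of the list shifted by −2.67 and −15.2 percentage points in WT against 0.637 and 5.00 in KO, a difference of 11.8. For covered length the log2 ratios were −0.65 and −1.93 against 1.04 and 0.38, a difference of 2.00. For median peak width they were −0.32 and −0.49 against 0.24 and 0.017, a difference of 0.53. For the number of SEs they were −0.94 and −2.16 against 1.70 and 0.68, a difference of 2.74. With HDAC4 silenced the pairs of WT and KO cells did not separate in this way, since the KO A pair lay below 0 in peak number (−0.21) and the KO B pair above it (1.80).

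Outside the chromosomes analyzed, the lists held 31 and 32 peaks on other contigs in UNT A and B and 34 and 28 in OXPT A and B, which entered no comparison.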

How the results depend on the processing

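Of 123 alternative values for 15 results, 58 moved beyond the main value's error or by over 1.5 times. Direction was followed only for peak number, SE number, covered length, median peak width and start-site share of the list. Of these values 0 reversed. The other results were counts and shares of regions, for which no reversal could be scored. Without OXPT B, gained regions (5536) outnumbered lost ones (4351). Without centering, lower regions (488) outnumbered higher ones (10). The cause was not tested except where stated.

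With only peaks of −log10 q of at least 10, 1750 regions were lost and 1 gained, with start-site shares of 62.1% and 0%, and limma called 1 higher and 0 lower of fewer regions tested. At this limit the lists held 5121 and 4368 peaks in UNT A and B but 811 and 189 in OXPT A and B. Few regions could therefore be gained. With lists trimmed to the shortest, 1036 were lost, the start-site shares were 67.6% and 29.1%, and the p53 share of gained regions was 16.9%. When a call needed 50% of a region covered, 5535 were lost, 52.9% at start sites. The lost start-site share was 45% with peaks merged within 500 bp and 51.9% at the depth of OXPT B, and a limit of 2.5 kb gave 50.7% of lost and 13.5% of gained regions, a wider limit taking in more. The p53 share was 4.62% within 200 bp, a smaller window, and 19.8% with at most 1 mismatch. With SE lists trimmed to the shortest 26 SE regions were lost. The alternatives on the p53 element and on depth were chosen after seeing the data.

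Without the replicate block limma called 0 higher and 0 lower regions, and the block decided no other call, as the smallest permutation p is 0.333 without it. Quantile normalization gave 6 higher, no centering 10 higher and 488 lower, mean folds 5 lower, and regions with 1 peak in each library 2 higher and 0 lower.

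Leaving out 1 library at a time, so that 1 list of its condition sufficed, gave 4351 to 11757 lost and 497 to 5536 gained regions, start-site shares of 34.7% to 61.1% and 8.43% to 21.0%, p53 shares of 9.07% to 22.3%, 336 to 861 lost and 6 to 35 gained SE regions, and 294 to 573 lost SE regions with a peak in both (or the only) OXPT library. Limma then called 0 to 2 higher and 0 to 1 lower regions, with no letter term, 1 residual degree of freedom and the lone library assumed to vary like the others. Over these settings the log2 ratio of OXPT to UNT ranged from −1.33 to −0.13 for peaks and from −1.92 to −1.18 for SEs. The lowest fold callable at the usual background was highest in OXPT B. With only peaks kept that would still be called at its depth, 2451 regions were lost and 340 gained. The part of depth in the missing calls was not tested further.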
